A study of Mus musculus with 458 samples.

Results

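Immediate early genes are switched on within minutes of a stimulus, without new protein synthesis, and most of their transcripts decay quickly. The 10 described here were read in single haematopoietic stem cells (HSCs): Fos, Fosb, Jun, Junb, Jund, Egr1, Ier2, Dusp1, Zfp36 and Nr4a1. All 10 are among the 22645 gene symbols of the expression table. They were chosen by name with earlier results of these data known, so their counts set beside all genes are no independent support. For each gene the share of cells at 1 RPKM or more was taken (RPKM: reads divided by gene length in kilobases and by the sequencing depth of the cell). The level among those cells was read as well, and the number of the 10 genes that a cell held at that level. A gene at 1 RPKM or more is called on below.

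The cells came from 6 C57BL/6 mice that had received a single Vwf+ HSC each and were followed for 16 weeks. The clone restored every blood lineage in the multilineage (MUL) mice. It restored platelets, erythroid and myeloid cells in the PEM mice and nothing but platelets in the PLT mice. The deposited cell table names these states Balanced, P_E_M_biased and Plt_biased. Donor-derived cells of the phenotype LSK CD150+CD48-CD45.2+ were sorted from recipient bone marrow into plates, 1 cell per well. Each group had 2 mice, and each mouse 2 plates. Mice 1 and 2 gave 78 and 85 cells for MUL (163 in all), 93 and 25 for PEM (118), and 93 and 84 for PLT (177). All cells of a mouse descend from 1 transplanted cell, so a mouse is 1 clone as well as 1 animal. Both MUL mice carry the same experiment prefix in their titles and each other mouse has its own, so prefix and group cannot be told apart. PEM mouse 2 and PLT mouse 2 are recorded as female and the other 4 as male, and whether this is the sex of donor or recipient is not given.

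Serum factors, cytokines and stress reach these genes through MAP kinase cascades, which act on factors already bound at the promoters, such as SRF with its ELK partners at CArG boxes and CREB at cyclic AMP response elements. FOS and JUN family proteins pair to form the transcription factor AP-1. The feedback members end the response: DUSP1 removes phosphates from MAP kinases, and the zinc finger protein ZFP36 binds AU-rich elements and speeds the decay of messenger RNAs. In blood stem cells the same genes are also known to rise during tissue dissociation and sorting, when cells are handled outside the marrow.

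Median depth was between 4.28 and 5.32 M mapped reads in every mouse, and between 3.20 and 12.2 M in the 2 plates of PEM mouse 2. Median detected genes per cell, as counted by the authors, ranged from 1869 in PLT mouse 1 to 3186 in PEM mouse 1. The sorted identity was checked against 10 HSC markers. Meis1 was on in 77.7% of all cells, Ly6a, which encodes the sorted Sca-1 antigen, in 58.5%, Kit in 56.1% and Procr in 24%, and 348 cells had at least 3 of the 10 on. At least 3 markers of 1 mature blood or stromal cell type were on in 57 cells, 12.4% of all (6.41% to 28.0% of the cells of a mouse). Pooled over mice, these cells had a mean of 1.30 immediate early genes on, against 1.25 in the rest. By mouse the means were 2.6 and 2 against 1.40 and 2.09 for MUL, and 2 and 0.857 against 1.47 and 0.667 for PEM. For PLT they were 0.714 and 0.583 against 0.608 and 0.792. The pooled values thus hide differences within mice, which rest on 5 such cells in MUL mouse 1 to 14 in PLT mouse 1.

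The promoters of Fos, Dusp1, Junb and Zfp36 are shown, 4 of the 6 members with lower means in both PLT mice than in both MUL mice. They were picked for their elements: Fos, Dusp1 and Junb share the same short element and Zfp36 holds another. Each line gives the 250 bases before the annotated start, 5′ to 3′ in the direction of the gene, from RefSeq on GRCm38.p6. Capitals mark the half-site TGACG of the cyclic AMP response element, on either strand, and the CArG box to which SRF binds.
Fos (chr12:85473640-85473889, plus strand): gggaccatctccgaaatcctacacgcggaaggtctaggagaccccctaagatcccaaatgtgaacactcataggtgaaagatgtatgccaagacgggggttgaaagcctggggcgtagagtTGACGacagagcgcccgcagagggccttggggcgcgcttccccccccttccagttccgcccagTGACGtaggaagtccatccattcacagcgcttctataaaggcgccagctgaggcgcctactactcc
Dusp1 (chr17:26508473-26508722, minus strand): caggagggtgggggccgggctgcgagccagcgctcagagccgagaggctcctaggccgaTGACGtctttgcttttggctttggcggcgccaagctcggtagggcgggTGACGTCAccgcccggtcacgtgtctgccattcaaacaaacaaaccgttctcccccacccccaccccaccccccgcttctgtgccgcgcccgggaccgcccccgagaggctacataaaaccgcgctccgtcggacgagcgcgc
Junb (chr8:84978749-84978998, minus strand): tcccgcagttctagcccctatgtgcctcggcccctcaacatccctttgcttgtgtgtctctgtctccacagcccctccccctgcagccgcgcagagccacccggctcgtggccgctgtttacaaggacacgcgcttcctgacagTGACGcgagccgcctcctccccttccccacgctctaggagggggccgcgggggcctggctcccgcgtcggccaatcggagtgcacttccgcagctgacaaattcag
Zfp36 (chr7:28379229-28379478, minus strand): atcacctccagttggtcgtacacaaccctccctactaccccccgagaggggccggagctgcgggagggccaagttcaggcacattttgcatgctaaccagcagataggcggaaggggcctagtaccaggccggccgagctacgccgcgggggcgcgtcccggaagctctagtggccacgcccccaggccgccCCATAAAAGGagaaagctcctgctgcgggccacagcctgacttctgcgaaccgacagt
The search ran on both strands over windows from 250 bases before to 50 after the start, which were found for 8 of the 10 genes. TGACG was present in 5 of the 8 (Dusp1, Fos, Fosb, Junb and Nr4a1) and in 20.8% of all 32851 promoter windows. In Fos it began at positions -129 and -66, counted from 0 at the annotated start, and in Junb at -106. The full palindrome TGACGTCA, which contains the half-site on both strands, was found in Dusp1 alone of the 8, at -143, and in 1.79% of all windows. A CArG box was found in Zfp36 alone of the 8, at -58, and in 1.63% of all windows. Jun and Ier2 also had lower means in both PLT mice: the Jun window held neither TGACG nor a CArG box, and Ier2 had no window. Fosb and Nr4a1, which hold TGACG, did not have lower means in both PLT mice. The AP-1 site TGANTCA was in none of the 8 and in 7.81% of all windows. These are matches of letters in 1 window per gene, placed by its RefSeq start. The gene positions given below are from GENCODE M21, and the windows of Dusp1, Zfp36 and Nr4a1 lie inside those spans. The Jund window ends at 70697738, before the start of its span at 70698949. Other starts of these genes were not searched.

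The values of a gene were split into 2 ranges. Whole reads could be recovered from the steps of the RPKM values, with 99.8% of values under 100 reads whole to within 0.02 reads. Cells with Ier2 on held a median of 669 of its reads, and those with Dusp1 on 1667, Egr1 758, Fos 675, Nr4a1 515, Junb 514, Jun 453 and Zfp36 426.5. Cells above 0 but under 1 RPKM held a median of 1 read of each gene except Jund. Jund differed, with a median of 44 reads where on and 2 reads below. The histograms of recovered reads show few cells in the middle range for Fos, Dusp1 and Ier2 and a continuous slope for Jund.

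**Figure D1:**
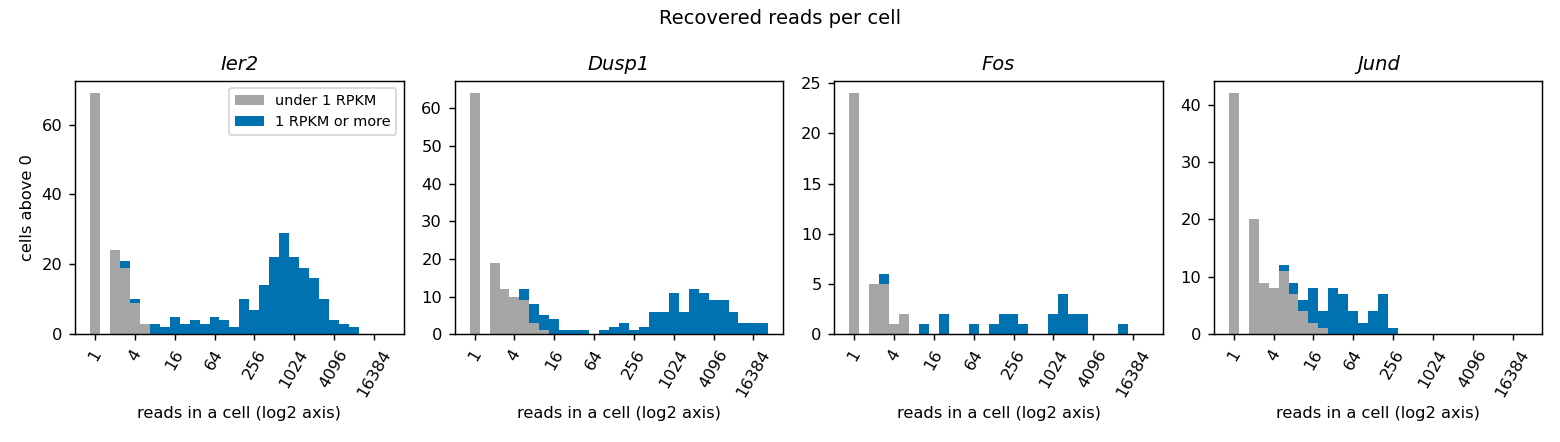
Histograms of recovered reads per cell (log2 axis) for Ier2, Dusp1, Fos and Jund over the cells above 0, grey under 1 RPKM and blue at 1 RPKM or more; the y axis counts cells. Grey cells pile up at 1 read, whereas cells with Ier2, Dusp1 or Fos on had median reads of 669, 1667 and 675, and Jund had 44.

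The traces under 1 RPKM differed between mice, and for some genes between the plates of a mouse. In PLT mouse 1, Nr4a1 had 0 traces on plate 1 and 10 on plate 2, which held the 2 cells with Nr4a1 on. For Fos, 24 of 67 cells under 1 RPKM in MUL mouse 1 and 13 of 78 in MUL mouse 2 were above 0, and none of the 90, 25, 93 and 83 such cells of the PEM and PLT mice. For Dusp1, 93.3% of such cells were above 0 in MUL mouse 2, the mouse with the highest mean. The share was 58.5% in MUL mouse 1, 47.4% and 18.2% for PEM, and 11.4% and 10.8% for PLT. Dusp1 was on in some cell of 11 of the 12 plates. On the remaining plate, plate 2 of PLT mouse 1, 0 of 46 cells were above 0, and plate 1 of that mouse had 10 traces. All 37 Fos traces were on the 6 plates with a cell on, and 0 on the 6 plates without. Traces also occurred on plates without a cell on, 1 each for Fosb, Jun, Junb and Nr4a1 and 2 for Jund. A share of cells above 0 is thus no share of cells with the gene on, and the part of traces in the mouse means was not tested.

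Fos encodes the FOS subunit of AP-1 (chromosome 12, 85473890 to 85477273, plus strand, mm10). It was on in 11 of 78 and 7 of 85 MUL cells, 3 of 93 and 0 of 25 PEM cells, and 0 of 93 and 1 of 84 PLT cells. Mean RPKM over all cells of a mouse was 41.1 and 9.04 in MUL, 1.66 and 0 in PEM, and 0 and 0.401 in PLT mice. Both MUL mice were above the other 4 in both measures. Few cells carried these means: a single cell at 1312 RPKM held 41.0% of the summed Fos RPKM of MUL mouse 1, and the highest cell of MUL mouse 2 held 41.3%. Where 0 cells were on, the count allows a share of up to 12% in PEM mouse 2 and 3.23% in PLT mouse 1. Fosb, its paralog on chromosome 7 (19302696 to 19310051, minus strand), was on in 0 cells of the 6 mice, which allows up to 0.655%, and a single read of it was found in 1 cell of MUL mouse 1.

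Jun encodes the JUN partner of AP-1 (chromosome 4, 95049034 to 95052222, minus strand). It was on in 12 of 78 and 9 of 85 MUL cells, 8 of 93 and 0 of 25 PEM cells, and 3 of 93 and 1 of 84 PLT cells. Its mean RPKM was 9.05 and 8.74 for MUL, 4.36 and 0 for PEM, and 2.13 and 0.0334 for PLT. Both MUL mice were again the highest, and PEM mouse 1 lay close below MUL mouse 2 in share (8.60% against 10.6%). Among cells with Jun on, the median level was 44.1 RPKM for MUL, 47.5 for PEM and 55.3 for PLT cells. The counts of cells with Jun on differed between groups more than these medians did.

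Junb encodes a JUN relative that also pairs with FOS (chromosome 8, 84974484 to 84978718, minus strand). It was on in 5 of 78 and 25 of 85 MUL cells, 24 of 93 and 3 of 25 PEM cells, and 6 of 93 and 4 of 84 PLT cells. The MUL mice did not resemble each other: the share was 6.41% (95% interval 2.11 to 14.3) in MUL mouse 1 and 29.4% (20 to 40.3) in MUL mouse 2. The other high mouse was PEM mouse 1, at 25.8%. By mean RPKM both PLT mice (8.20 and 2.15) were below both MUL mice (16.1 and 31.9), while the PEM mice (20.7 and 4.54) overlapped them. Jund, the JUN relative that is usually expressed at a steady level (chromosome 8, 70698949 to 70700616, plus strand), ran from 4% of the cells of PEM mouse 2 to 19.4% of PEM mouse 1. Its level where on was low, with a median of 3.57 RPKM over 47 cells, and the groups of mice overlapped in share and in mean.

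Egr1 encodes a zinc finger transcription factor induced by growth factors and, in the mouse, known to hold HSCs in the marrow (chromosome 18, 34859823 to 34864984, plus strand). It was on in 5 of 78 and 6 of 85 MUL cells, 2 of 93 and 1 of 25 PEM cells, and 3 of 93 and 12 of 84 PLT cells. PLT mouse 2, at 14.3% (95% interval 7.61 to 23.6), was the highest mouse for Egr1, and for no other member was a PLT mouse highest in share. Its mean RPKM was 6.72 and 11.4 in MUL, 2.18 and 2.88 in PEM, and 4.10 and 8.80 in PLT mice. Nr4a1, an orphan nuclear receptor gene (chromosome 15, 101254269 to 101274795, plus strand), was on in 6 cells: 1 of MUL mouse 1, 3 of PEM mouse 1 and 2 of PLT mouse 1. The 2 PLT cells were at 265 and 544 RPKM, and these 2 cells made PLT mouse 1 the highest mouse by mean, at 8.71 RPKM.

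Ier2 encodes a small nuclear protein of the immediate early response (chromosome 8, 84661331 to 84662852, minus strand) and was the member on in most cells, 192 in all (41.9%). The share was 44.9% and 57.6% for MUL, 55.9% and 28.0% for PEM, and 30.1% and 25.0% for PLT. Both MUL mice and PEM mouse 1 lay above the other 3 mice, and their exact 95% intervals of 33.6 to 56.6, 46.4 to 68.3 and 45.2 to 66.2 overlapped each other. Mean RPKM was 95.8 and 123 in MUL, 73.0 and 44.9 in PEM, and 69.9 and 22.1 in PLT mice, with both MUL mice highest. A single cell of PLT mouse 1 at 1678 RPKM held 25.8% of that mouse's sum.

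Dusp1 encodes the MAP kinase phosphatase of the feedback loop (chromosome 17, 26505590 to 26562128, minus strand). It was on in 25 of 78 and 55 of 85 MUL cells, 15 of 93 and 3 of 25 PEM cells, and 5 of 93 and 10 of 84 PLT cells. In percent these are 32.1 and 64.7 in MUL, 16.1 and 12 in PEM, and 5.38 and 11.9 in PLT mice, and the 3 groups did not overlap, although the lowest PEM and the highest PLT share nearly met. The 2 MUL mice also differed from each other: their 95% intervals were 21.9 to 43.6 and 53.6 to 74.8. In MUL mouse 2, 13 of the 55 cells lay between 1 and 5 RPKM, against 0 to 3 in each other mouse. At 10 RPKM or more the counts were 21 and 42 in MUL, 15 and 2 in PEM, and 5 and 9 in PLT mice, or 26.9% and 49.4%, 16.1% and 8%, and 5.38% and 10.7%. Both MUL mice stayed highest at that threshold, while PEM and PLT overlapped. The median level where on was 182 and 338 RPKM for MUL, 169 and 310 for PEM, and 273 and 120 for PLT, an order with no separation of the groups.

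Zfp36 encodes the messenger RNA decay factor tristetraprolin (chromosome 7, 28376784 to 28380253, minus strand). It was on in 14 of 78 and 21 of 85 MUL cells, 18 of 93 and 3 of 25 PEM cells, and 4 of 93 and 6 of 84 PLT cells. Both PLT mice (4.30% and 7.14%) were below the other 4, and PEM mouse 1 (19.4%) lay between the MUL mice (17.9% and 24.7%). Mean RPKM was 40.2 and 27.5 in MUL, 10.5 and 2.37 in PEM, and 7.34 and 6.70 in PLT mice. In PLT mouse 2 a single cell at 522 RPKM held 92.6% of the sum, and in PEM mouse 2 a cell at 53.4 RPKM held 90.3%. Of the 10 members 5 have exons that overlap those of a gene on the opposite strand in GENCODE M21, Junb with Prdx2 and Dusp1 with Ergic1 among them. Whether the counting used strand is not given, so reads from such a pair cannot be told apart. Prdx2 was on in 86.6% of cells with Junb on and 81.6% of the rest, and Ergic1 in 8.85% of cells with Dusp1 on and 15.9% of the rest.

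**Figure D2:**
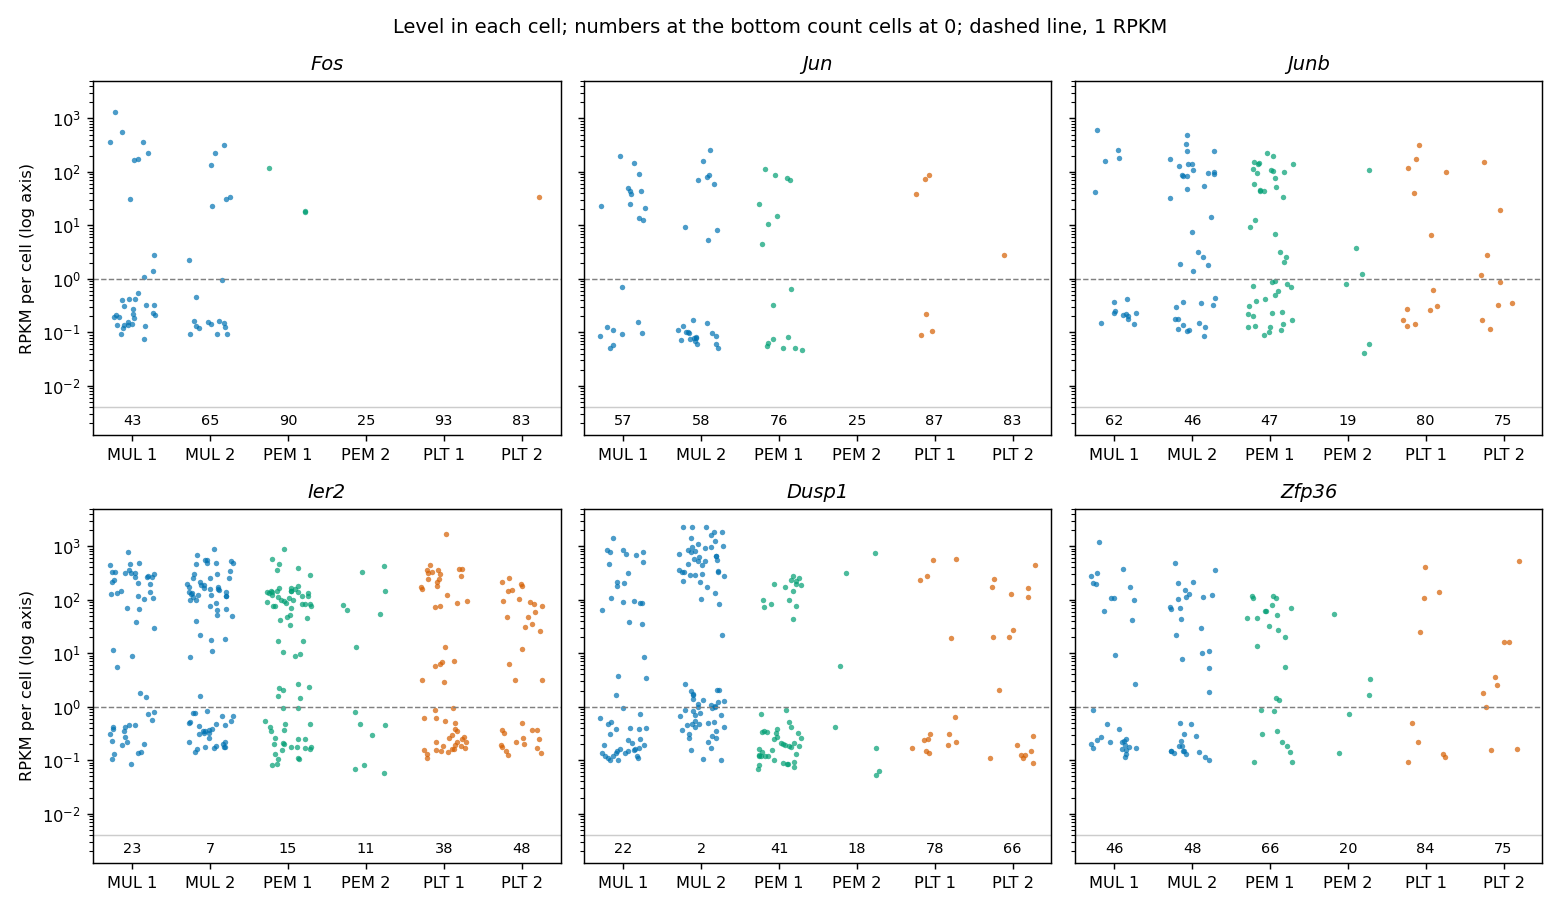
RPKM of 6 members in each cell (log axis), 1 point per cell above 0, with the 6 mice on the x axis and the number of cells at 0 printed at the bottom; the dashed line is 1 RPKM. Points form an upper band near 100 RPKM and a lower band under 1 RPKM, and the upper band of Dusp1 holds 42 cells at 10 RPKM or more in MUL mouse 2 and 5 in PLT mouse 1.

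**Figure D3:**
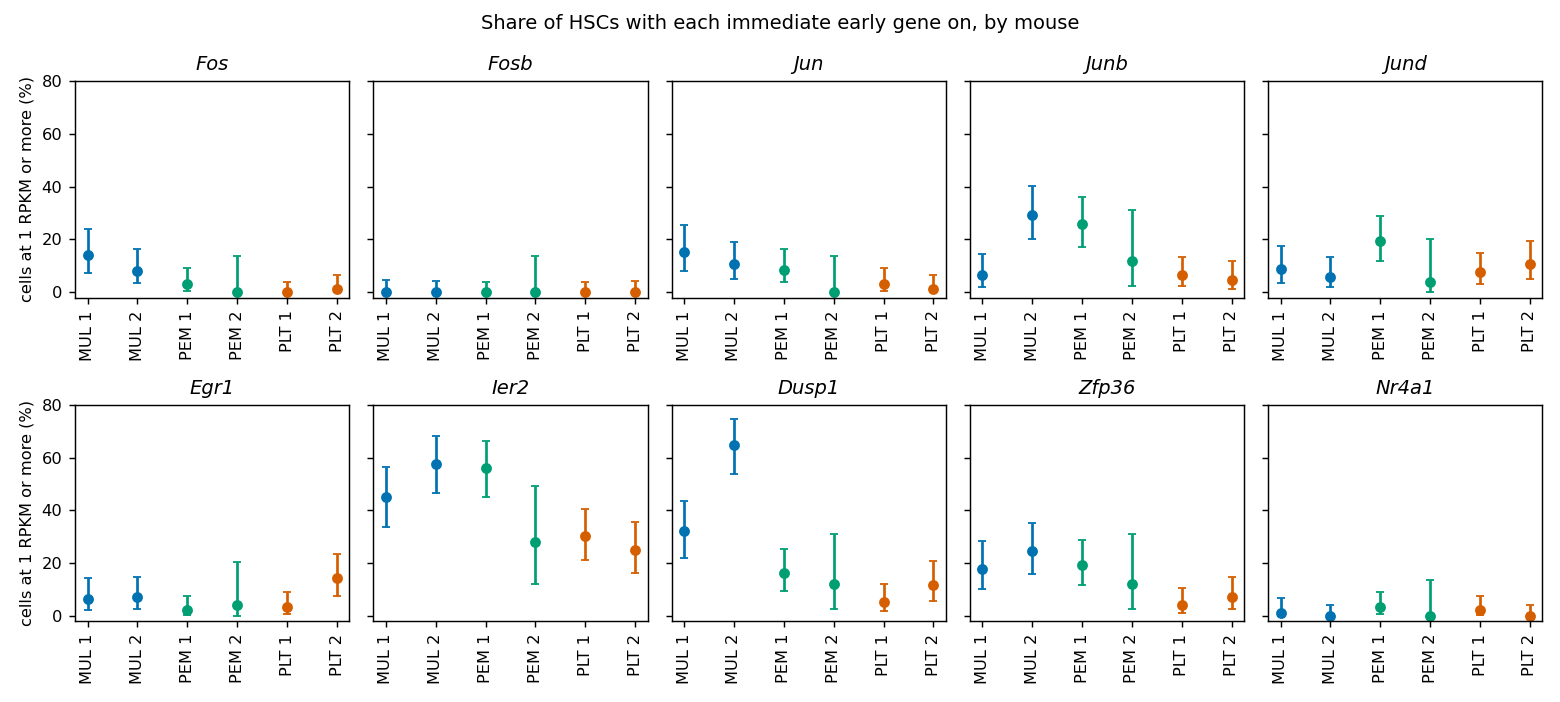
Percent of cells of each mouse at 1 RPKM or more for the 10 genes, with exact 95% intervals as bars (counting error only). Dusp1 runs from 5.38% in PLT mouse 1 to 64.7% in MUL mouse 2, Ier2 from 25.0% to 57.6%, and Fosb is at 0 in all 6 mice.

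The comparison of PLT with MUL asks how HSCs restricted to platelets differ from multilineage ones, with 2 mice a group and 1 clone a mouse. Of the 10 members, 6 (Fos, Jun, Junb, Ier2, Dusp1 and Zfp36) had a lower mean RPKM in both PLT mice than in both MUL mice, and none a higher one. Over the 11337 genes tested, 24.9% were lower in both PLT mice and 14.8% higher. In share of cells on, 5 of the 10 were lower in both PLT mice (the same genes without Junb), against 22.1% of the 9804 genes tested. The median difference over the 10 members was -1.77 in log2(mean RPKM + 1), and -0.18 over all tested genes. In share the median over the 10 was -10.7 percentage points, and -6.52 without MUL mouse 2. No member passed the test. Limma (moderated over all genes, Benjamini-Hochberg adjustment) called 0.00882% of genes by mean RPKM and 0% by share. Its difference was -4.12 ± 0.95 (SE) for Fos (adjusted p = 0.471), -3.51 ± 0.61 for Dusp1 (adjusted p = 0.289), and -1.43 ± 0.58 for Ier2 (adjusted p = 0.566). Jun, Junb and Zfp36 had differences from -2.46 to -2.10 and adjusted p between 0.540 and 0.592. Egr1 was at -0.47 ± 0.77 and Nr4a1 at 0.89 ± 1.12. At an unadjusted limma p under 0.05 were 6 of the 8 tested members and 953 genes (8.41% of those tested) by mean. By share 3 of 8 and 332 genes (3.39%) were. With edgeR on the recovered reads 1 of 8 and 515 genes (4.54%) were, and 0 genes passed adjustment. With 2 mice a group, the smallest p of an exact two-sided permutation test is 0.333.

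The comparison of PEM with MUL asks the same of HSCs that restore platelets, erythroid and myeloid cells. Fos, Jun, Egr1, Ier2, Dusp1 and Zfp36, 6 of the 10, had a lower mean in both PEM mice than in both MUL mice, and none a higher one. The background was 18.3% of tested genes lower and 17.5% higher. In share of cells, Fos, Jun, Egr1 and Dusp1 were lower in both PEM mice, against 5.3% of tested genes. The median difference over the 10 members was -1.29, against -0.04 over all tested genes. In share the median over the 10 was -4.66 percentage points, and -0.986 without PEM mouse 2. Limma called 0% of genes by mean and 0% by share. Fos differed by -3.66 ± 0.95 (SE), Dusp1 by -2.59 ± 0.61, Zfp36 by -2.46 ± 0.76 and Jun by -2.10 ± 1.01 (SE), each with an adjusted p of 0.868. At an unadjusted limma p under 0.05 were 3 of 8 members and 634 genes (5.59% of those tested) by mean. By share 2 of 8 members and 435 genes (4.44%) were. EdgeR gave 0 of 8 members and 426 genes (3.76%). Both comparisons use the same MUL mice.

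Between PLT and PEM mice the median difference over the 10 members was -0.18, against -0.13 over all tested genes. Dusp1 was lower in both PLT mice than in both PEM mice and Egr1 higher, against 21.9% of tested genes lower and 14.1% higher. In share of cells Junb, Dusp1 and Zfp36 were lower in both PLT mice, against 36.3% of tested genes. Of the 8 members tested, Nr4a1 had the largest difference, 1.18 ± 1.12 (SE, limma adjusted p = 0.798). It rests on the 2 PLT cells named above and was 2.82 without PLT mouse 2, 1.64 without PEM mouse 1, 0.72 without PEM mouse 2 and 3.49 with edgeR, and without PLT mouse 1 the gene did not pass the filter on low values. Junb was at -1.03 ± 0.90 (limma adjusted p = 0.783), and Egr1 was at 1.01 ± 0.77 (adjusted p = 0.756). Limma called 0% of genes by mean and 0% by share. By mean 0 of 8 members were at an unadjusted limma p under 0.05, with 949 genes (8.37% of those tested). By share 1 of 8 was, with 1110 genes (11.3%), and with edgeR 1 of 8, with 711 genes (6.27%).

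**Figure D4:**
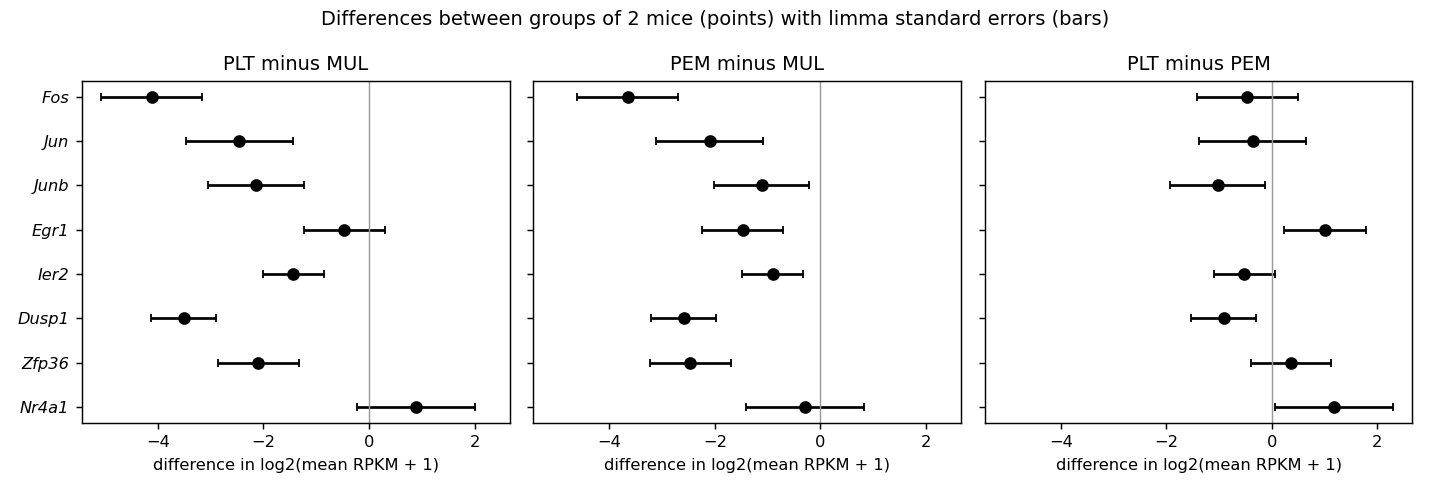
Difference in log2(mean RPKM + 1) between groups of 2 mice for the 8 members tested, with limma standard errors as bars, in the 3 comparisons. In PLT minus MUL 7 points lie below 0, from -4.12 for Fos to -0.47 for Egr1, and Nr4a1 lies above at 0.89.

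Of all cells, 150 had none of the 10 genes on, 141 had 1, 99 had 2, 43 had 3 and 25 had 4 or more. A cell had a mean of 1.47 and 2.08 of the 10 genes on for MUL, 1.54 and 0.720 for PEM, and 0.624 and 0.762 for PLT. By group this was 1.78 ± 0.43 for MUL, 1.13 ± 0.58 for PEM and 0.693 ± 0.098 for PLT (SD, n = 2 mice each), so that MUL and PLT did not overlap and PEM overlapped both. None of the 10 was on in 25.6% and 10.6% of MUL cells, 17.2% and 44.0% of PEM cells, and 55.9% and 50% of PLT cells. At least 3 were on in 13 and 30 MUL cells, 18 and 1 PEM cells, and 2 and 4 PLT cells. PEM mouse 1 sided with the MUL mice in each of these measures and PEM mouse 2, with 25 cells, with the PLT mice.

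**Figure D5:**
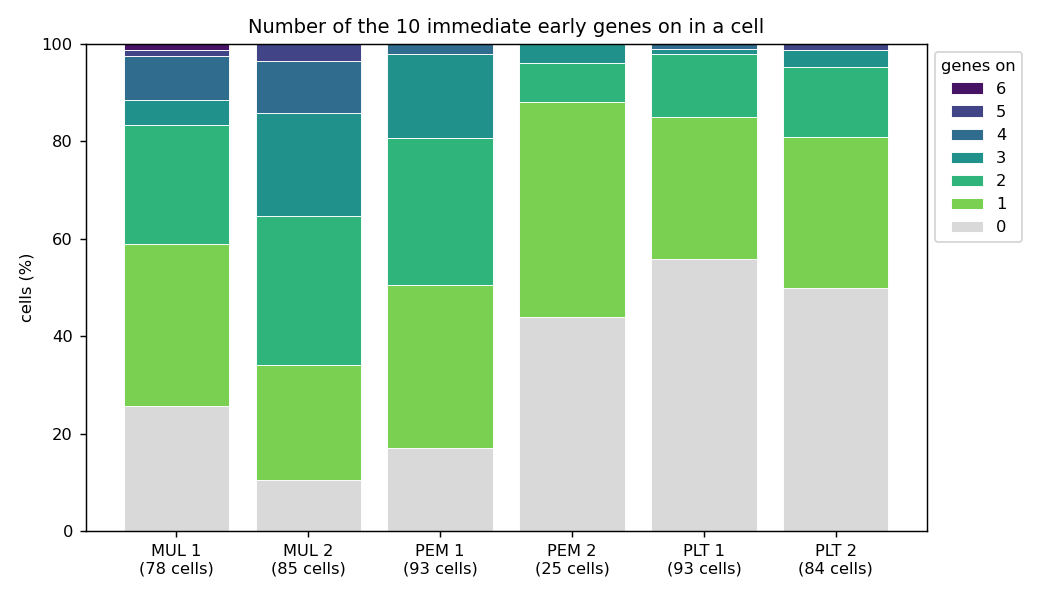
Percent of the cells of each mouse by how many of the 10 genes were on, from 0 (grey) to 6 (darkest). The grey part is 25.6% and 10.6% for MUL and 55.9% and 50% for PLT.

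The cells with at least 1 gene on showed 73 combinations. The commonest were Ier2 alone (62 cells), Ier2 with Dusp1 (30), Dusp1 alone (23), and Junb alone and Jund alone (14 each). Of the 30 cells with the Ier2 and Dusp1 pair and nothing else, 19 were MUL, 7 PEM and 4 PLT. Ier2 was thus often on by itself, in 32.3% of the cells that had it, whereas Fos was on alone in 2 of 22. There were 6 cells with 5 or more of the genes on: 2 of MUL mouse 1, 3 of MUL mouse 2 and 1 of PLT mouse 2. The cell with 6, in MUL mouse 1, had Zfp36 at 1176, Ier2 at 774, Dusp1 at 311, Junb at 158, Nr4a1 at 141 and Jun at 43.6 RPKM. It had no Fos, and of the 6 cells 2 had Fos on.

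Pairs of genes met in the same cell about as often as their shares in each mouse give, or somewhat more often. Of the 45 pairs, 18 had at least 5 cells to be met by the product of the 2 shares, summed over mice. In 14 of the 18 the count was above that product, with a median ratio of 1.16 and a range of 0.529 to 1.80. Ier2 and Dusp1 met in 67 cells against 56.2, Junb and Ier2 in 42 against 33.7, and Junb and Zfp36 in 18 against 12.6. The highest ratio was for Jun with Zfp36, at 11 cells against 6.13, and the lowest for Junb with Jund, at 4 against 7.56. Fos met Ier2 in 10 cells against 10.9 and Dusp1 in 9 against 8.66. Within a mouse, the variance of the number of genes on was 1.68 and 1.39 times that of independent shares for MUL, 1.02 and 1.01 for PEM, and 1.33 and 1.42 for PLT. These are descriptions of cells within 6 mice, with no test.

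Over all cells together, those with more of the genes on had more detected genes and a lower mitochondrial percent, and the mice differ in each of these. Median detected genes was 2236 in the 150 cells with none, 2856 in the 43 cells with 3, and 2647 in the 25 with 4 or more. The mitochondrial share of reads had a median of 6.14% with none and 4.46% with 4 or more, while mapped reads showed no order (4.89 and 4.27 M). Within mice, Spearman's rho between the number on and detected genes was 0.232 and 0.115 in MUL, 0.210 and -0.181 in PEM, and 0.133 and 0.321 in PLT mice. With the mitochondrial percent, rho was 0.0058 and -0.332 in MUL, 0.026 and 0.0068 in PEM, and 0.025 and -0.322 in PLT mice, so it was below 0 in MUL mouse 2 and PLT mouse 2 and near 0 in the other 4. The part of detected genes and of mitochondrial percent in the counts was not tested. By mouse, median detected genes was lowest for PLT mouse 1 (1869) and highest for PEM mouse 1 (3186). Between these lay MUL mouse 1 (2209.5), MUL mouse 2 (2553), PLT mouse 2 (2596) and PEM mouse 2 (2752). Cells with at least 3 HSC markers on had a mean of 1.90 and 2.15 members on for MUL, against 0.667 and 1.29 in the rest. For PEM these means were 1.57 and 0.667 against 0.667 and 1, and for PLT 0.6 and 0.879 against 0.651 and 0.5. The means were thus higher beside HSC markers in 4 of the 6 mice. Cells with at least 3 such markers were 51 of 78 and 78 of 85 for MUL, and 90 of 93 and 21 of 25 for PEM. For PLT they were 50 of 93 and 58 of 84, so the rest was few cells in MUL mouse 2 and both PEM mice. The part of HSC marker level in the group values was not tested.

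Shares were also read on each of the 2 plates of a mouse. The median difference between plates was 4.37 percentage points over the 10 genes in the 5 mice other than PEM mouse 2. With 11 to 47 cells a plate, these values do not show that plates are alike. The widest gaps were Junb in PEM mouse 2 (0 of 14 and 3 of 11 cells) and Ier2 in PLT mouse 2 (16 of 43 and 5 of 41). Dusp1 was on in 26 of 45 and 29 of 40 cells on the plates of MUL mouse 2, and in 12 of 43 and 13 of 35 on those of MUL mouse 1, so its share was higher in MUL mouse 2 on both plates.

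Other genes of the response were taken from 6 lists, none of whose members passed limma or edgeR in any comparison. At an unadjusted limma p under 0.05 in PLT minus MUL were 3 of the 16 other immediate early genes tested, 2 of 11 feedback inhibitors, 2 of 14 upstream genes and 0 of the remaining 3 lists, against 8.41% of all genes tested. Counts of genes lower in both PLT mice stand against 24.9% of all tested genes lower and 14.8% higher, and medians against -0.18. The counts and medians of the lists also take in genes too low to be tested, and the values for all genes do not. Of 22 other immediate early genes, 13 were lower and 4 higher in PLT than in MUL, with 8 of the 22 lower in both mice, 0 higher in both and a median difference of -0.24, near that of all genes. The most abundant was Myc, the growth-related transcription factor gene, on in 57.7% and 60% of MUL, 58.1% and 44.0% of PEM, and 28.0% and 50% of PLT cells. Klf10 had 98.7 and 61.2 RPKM in MUL, 60.4 and 77.4 in PEM, and 53.4 and 40.2 in PLT mice. Btg2, an antiproliferative gene, was highest in PEM mouse 2, at 177 RPKM against 8.50 to 31.1 in the other mice. Myc differed by -0.70 ± 0.34 between PLT and MUL (limma adjusted p = 0.625).

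Of 13 other feedback inhibitors, 10 were lower in PLT than in MUL, 6 of them in both mice (Dusp4, Dusp6, Socs3, Spry1, Tnfaip3 and Zfp36l2), and Zfp36l1 was higher in both. The median difference was -0.68. Of the 3 most abundant, Zfp36l2 was highest in both MUL mice by share of cells, as Dusp1 was, and the others were not. Nfkbia, which encodes the inhibitor of NF-kappaB, had its highest mean in PLT mouse 1 (199 RPKM, against 50.2 in PLT mouse 2 and 141 and 149 in the MUL mice). Spry2, an inhibitor of receptor tyrosine kinase signalling, was also highest there (217 RPKM, against 82.3 and 132 in MUL). Zfp36l2, a relative of Zfp36, was on in 78.2% and 84.7% of MUL, 75.3% and 52.0% of PEM, and 46.2% and 69.0% of PLT cells. Zfp36l2 was on in a larger share of cells than Dusp1 in all 6 mice, and Nfkbia and Spry2 in all but MUL mouse 2.

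The heat shock genes that respond to cell handling were lower in PLT than in MUL in 7 of 9, 5 of them in both mice (Dnaja1, Dnajb1, Hspa1a, Hspa1b and Hspa8), with a median of -1.17. In PEM minus MUL 7 of the 9 were lower, but 0 in both mice, and Hspe1 was higher in both, with a median of -0.67 against -0.04 over all genes. Hspa8, the constitutive HSP70 gene, had 4217 and 2666 RPKM in MUL, 4234 and 1676 in PEM, and 2317 and 1754 in PLT mice. Hsp90aa1 was highest in PLT mouse 2 (833 RPKM, against 777 and 343 in MUL), and Hspe1 too (364 RPKM, against 228 and 142). The part of handling in the members' values was not tested. The genes upstream of the response were near even between PLT and MUL, with 8 of 16 lower, 8 higher and a median of -0.07. Mapk14, which encodes the p38 kinase, was at 14.9 and 38.6 RPKM in MUL and at 17.7 and 35.8 in PLT mice. Map2k1 was at 33.4 and 53.7 RPKM in MUL and at 36.7 and 13.5 in PLT mice, and the SRF coactivator gene Mkl2 24.6 and 26.6 against 42.9 and 19.1. The AP-1 and small Maf relatives (10 genes, 5 tested) and the EGR and NR4A relatives (7 genes, 3 tested) had median differences of 0.00 between PLT and MUL. Genes too low to be tested weigh on these 2 medians. Batf had 66.7 and 78.5 RPKM in MUL and 66.3 and 66.2 in PLT mice, a narrow range, and Batf2 and Fosl2 differed by 0.29 ± 0.66 and -1.18 ± 1.10. Of the other set Nab1, which encodes a corepressor of EGR proteins, differed by 0.24 ± 0.67, Nr4a2 by -0.37 ± 0.96 and Nab2 by -0.80 ± 0.72 (limma adjusted p from 0.805 to 0.943).

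The genes whose level went most closely with the number of members on were searched among 6662 genes on in at least 10% of cells, by the mean of the within-mouse Spearman correlations over the 5 mice with at least 50 cells. The 8 highest were Gm11127 (0.267), H2-Q10 (0.251), H2-K2 (0.242), Gm7030 (0.241), H2-Q1 (0.238), H2-Bl (0.233), H2-D1 and H2-Q2 (0.231 each). H2 genes encode MHC class I chains, and such near-identical copies can share reads. Sharing of reads was not tested, so these 8 values cannot be taken to stand for separate genes. In PLT mouse 1 all 8 correlations were between -0.094 and 0.0024, against 0.411 to 0.476 in MUL mouse 2. No gene reached 0.3, and the number on itself had a mean correlation of 0.202 with detected genes.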

How the data were processed

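Libraries of single cells were made with a SMARTer Ultra Low RNA kit, as the labels' protocols say. The deposited table holds RPKM values made by the authors. Per the submitters' processing notes the tools were TopHat and featureCounts and the build mm10, and no tool version was found in the sources used here. A deposited cell table gives mapped read counts, counts of detected genes and the percent of mitochondrial reads, per the file headers. The members and all gene lists were chosen with earlier results of these data known.

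Cells were averaged within each mouse, and log2(mean RPKM + 1) was tested with limma 3.58.1 in R 4.3.3 (trended eBayes, 1 mean per group, 6 mice). A gene entered with a mean of 1 RPKM or more in 2 or more mice, which 11337 did. Fold changes on that scale understate those of low genes. Shares of cells at 1 RPKM or more were tested after an arcsine square root transform, for 9804 genes at 5% or more in at least 2 mice. Of the members, Fosb and Jund had no test by mean, and Fosb and Nr4a1 none by share. Adjustment was by Benjamini-Hochberg over all genes of a comparison, at 0.05. Whole reads recovered from the RPKM steps (median 3.51 M per cell, range 0.933 to 14.6) were summed per mouse for edgeR 4.0.16, an alternative chosen after seeing the data. Exact Clopper-Pearson 95% intervals and the 3 counts behind a share of 0 cover counting error only. Mouse numbers were given in accession order. Named genes outside the members were the 3 of each list with the highest mean RPKM and the 8 with the highest correlation. No cell was removed and no doublet caller was run. The limma test by mean RPKM was checked on simulated data for PLT minus MUL. The alternatives tried were other pseudocounts, thresholds, filters and scalings, single plates, subsets of cells and each mouse left out.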

Additional observations from a re-analysis of the deposited data

How the results depend on the processing

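No paired analysis was possible because mouse numbers follow accession order and tie no mouse of one group to a mouse of another. No member passed limma in any comparison under any alternative, and edgeR called none. Medians over the 10 members are in log2 units for levels and percentage points for shares. For PLT minus MUL the level median of -1.77 became -0.96 with a pseudocount of 10, -0.66 as a mean over cells of log2(RPKM + 1) and -2.48 on plate 2. With 1 mouse left out it ran from -2.20 to -1.15, and from -1.71 to -0.72 for PEM minus MUL. The mean of logs moved PEM minus MUL from -1.29 to -0.38. For PLT minus PEM it ran from -0.53 to 0.42 with 1 mouse left out, so its sign is not fixed. Share medians for PLT minus MUL were -23.2 for cells above 0 and -6.46 on plate 1, against -10.7, and -9.57 for PEM minus MUL above 0, against -4.66. With 1 mouse left out they ran from -10.9 to -6.52 for PLT minus MUL, -7.62 to -0.986 for PEM minus MUL and -6.94 to 0.298 for PLT minus PEM. The mean number of genes on above 0 RPKM was 3.57 for MUL, 2.29 for PEM and 1.53 for PLT, and 0.589 for PLT at 5 RPKM and 0.533 at 10 RPKM. The order MUL, PEM, PLT of the group means was the same at each threshold, but single mice did not keep to it. PEM mouse 2 was below both PLT mice at 5 RPKM (0.56 against 0.570 and 0.607) and 10 RPKM (0.48 against 0.505 and 0.560). PEM mouse 1 was above MUL mouse 1 at 1 RPKM (1.54 against 1.47) and below it at 5 and 10 RPKM. Single genes changed sign as follows, none with a call. Egr1 in PLT minus MUL was 0.067 by the mean of logs, 0.38 on plate 1, and -0.94 to 0.0043 with 1 mouse left out. Nr4a1 in PEM minus MUL was 0.030 by the mean of logs, and -1.03 to 0.17 with 1 mouse left out. In PLT minus PEM, Dusp1 was 1.56 on plate 1, and Fos 0.13 without cells holding 3 mature markers. With 1 mouse left out, Fos ran from -1.17 to 0.24, Jun from -1.58 to 0.85, Ier2 from -1.34 to 0.28 and Zfp36 from -0.52 to 1.25. Zfp36 was also -0.42 by the mean of logs, -0.30 on plate 1, -1.67 in cells with 1800 to 3000 detected genes and -0.55 without each mouse's highest cell. The cause of these changes was not tested. Sampled cells per mouse, 25 in PEM mouse 2, limit the shares.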
